A study of Mus musculus with 2 samples.

Results

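Mir191 and Mir425 are microRNA hairpins that lie 384 bases apart on the plus strand of mouse chromosome 9. Both were read here in small RNA of the embryonic heart. They are 2 of the 1973 microRNA gene rows in the deposited tables. Mir425 was read on its own strand. Mir191 is not among the listed identifiers, so it was read as the opposite-strand count of Gm24083 (ENSMUSG00000092915.1), a row annotated on the minus strand across the Mir191 hairpin. The rows were picked by name, with their strand counts, levels and ratio already known, so those values are a description and carry no test.

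The study holds 1 group, hearts of B6NCrl mouse embryos at embryonic day 10.5, with embryos of both sexes pooled. Replicate 1 was made from 69 embryos and replicate 2 from 51, and the labels call them biological replicates. No genotype, treatment or other age was compared, so every comparison is between genes or between the libraries. Small RNA below 30 bases was sequenced, and the gene rows held 4357841 counts in replicate 1 and 5018904 in replicate 2 over both strands. Levels are given as CPM, counts scaled to a total of 1000000 gene counts, with the mean and SD over n = 2. They are not divided by length, since each read stands for a whole small RNA.

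A microRNA hairpin is cut from a longer primary transcript and then diced to a duplex, of which a strand enters an Argonaute protein and guides it to matching messenger RNAs. Pairing of the seed, bases 2 to 8 of the mature strand, chooses most targets. Hairpins on a single primary transcript are made together, but each is processed and turned over by itself. miR-191 and miR-425 are known as broadly expressed, and miR-191 has often been used as a normaliser in small RNA assays. In mouse erythroblasts miR-191 is known to target Riok3 and Mxi1 and to fall as red cells mature, and in human miR-425 is known to repress the atrial natriuretic peptide gene NPPA.

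The mature strands of both hairpins, from RefSeq on GRCm38.p6, show that the neighbours carry different seeds. Each is written 5′ to 3′ with its seed in capitals.
miR-191-5p: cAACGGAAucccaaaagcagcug
miR-191-3p: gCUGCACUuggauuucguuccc
miR-425-5p: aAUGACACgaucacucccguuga
miR-425-3p: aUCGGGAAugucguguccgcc
Of the 1738 mature sequences in the table, 0 others had the seed of either miR-191 strand or of miR-425-3p. The seed of miR-425-5p was shared by 1 other, miR-489-3p. Its gene Mir489 had 7 counts in replicate 1 and 2 in replicate 2, or 1.61 and 0.398 CPM, far below Mir425 in both libraries.

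The hairpins that the counts describe are shown with both mature strands in capitals, because a deposited count covers the hairpin and does not separate the strands.
Mir191 hairpin: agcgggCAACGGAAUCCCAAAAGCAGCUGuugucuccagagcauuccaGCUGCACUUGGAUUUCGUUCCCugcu
Mir425 hairpin: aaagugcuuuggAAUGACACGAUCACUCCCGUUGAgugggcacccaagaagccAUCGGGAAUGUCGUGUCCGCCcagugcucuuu
The Mir191 hairpin has 74 bases and lies at chr9:108568319-108568392 of mm10 (GRCm38), and the Mir425 hairpin has 85 bases and lies at chr9:108568777-108568861. Reads mapped to several places were kept out of gene rows, so copies elsewhere would lower a count. Among 141767 GENCODE M21 transcripts, no stretch of 20 bases from either hairpin occurred outside genes of this locus. The genome outside these transcripts was not searched, so copies there cannot be told.

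The annotations place the pair differently. RefSeq has both hairpins inside Dalrd3, chr9:108567484-108572773 on the plus strand, a gene whose human protein takes part in methylation of transfer RNA. GENCODE M21 starts Dalrd3 at base 108569886, which is 1024 bases downstream of Mir425. It gives the sequence around the hairpins to 4833445I07Rik, a long noncoding RNA at chr9:108567533-108569174 on the same strand and tagged there as a host of small RNA. Both hairpins lie within the single exon of its longer transcript, and Mir191 lies in the intron of its shorter one. Gm24083 spans chr9:108568295-108568414 on the minus strand, and the reverse complement of its 120 bases holds the whole Mir191 hairpin from base 25 to base 98.

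**Figure D1:**
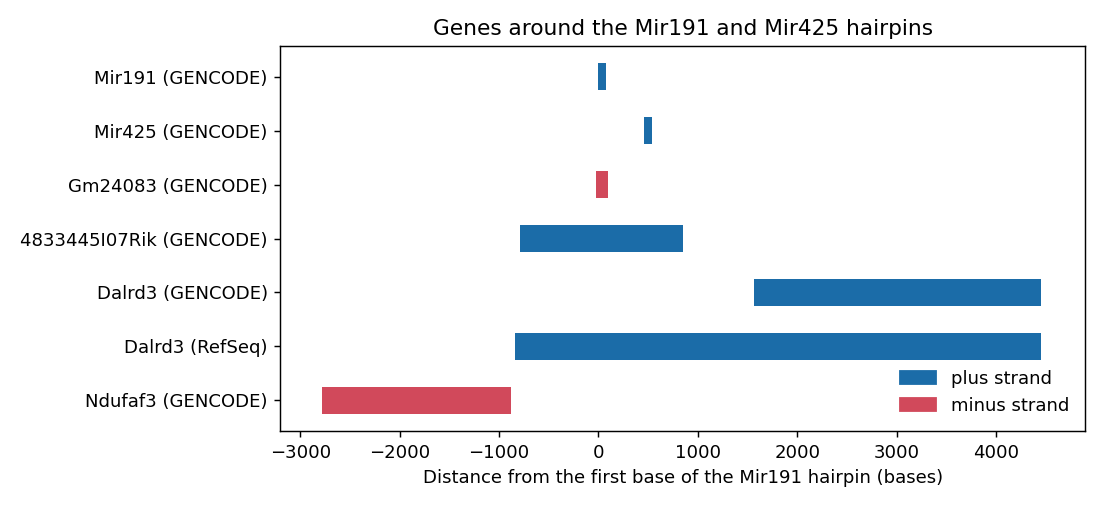
Genes around the pair, drawn to scale by distance in bases from the first base of the Mir191 hairpin, with plus-strand genes in blue and minus-strand genes in red. Gm24083 covers the Mir191 hairpin on the other strand, and Dalrd3 covers both hairpins in RefSeq but starts 1024 bases beyond Mir425 in GENCODE M21.

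In RefSeq, Dalrd3 starts 47 bases from Ndufaf3, a mitochondrial complex I assembly factor gene read on the minus strand, and 835 bases before the Mir191 hairpin. The RefSeq window around the Ndufaf3 start, chr9:108567387-108567686 on the minus strand, holds that Dalrd3 start at its base 203. It is shown because both hairpins lie downstream of it on the plus strand. In GENCODE M21, 4833445I07Rik also starts inside this window, at base 108567533 of chromosome 9. No start site was measured here.
Ndufaf3 window: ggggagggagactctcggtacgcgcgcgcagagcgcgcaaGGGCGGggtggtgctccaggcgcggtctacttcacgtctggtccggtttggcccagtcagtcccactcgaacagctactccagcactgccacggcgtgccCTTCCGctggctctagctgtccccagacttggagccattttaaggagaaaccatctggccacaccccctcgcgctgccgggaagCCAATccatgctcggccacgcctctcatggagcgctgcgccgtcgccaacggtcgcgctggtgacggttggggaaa
Capitals mark matches to 5 motifs searched on both strands, none of which overlapped another. The GC box GGGCGG matched once, and 35.7% of all 32851 windows of the table held a match, whether single or repeated. The CCAAT box CCAAT matched once, with a match in 37.4% of windows. The ETS core CGGAAG matched once as its reverse complement, with a match in 16.9%. The TATA box TATAAA, in 13.6% of windows, and the E-box CACGTG, in 7.15%, had no match in this window. The window is printed against the direction of Dalrd3, so bases before 203 lie downstream of the Dalrd3 start. The GC box at base 41 and the ETS core at base 141 lie there. The CCAAT box at base 225 lies upstream of that start. The window held 29 CG dinucleotides, against a median of 7 over all windows.

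All reads at the Gm24083 row came from the strand of Mir191. Gm24083 had 9492 opposite-strand counts in replicate 1 and 9854 in replicate 2, and 0 counts on its own strand in either. Up to 3 own-strand reads, the floor set here for a count of 0, could still have been missed. That is 0.0316% of the reads at the row in replicate 1 and 0.0304% in replicate 2. The upper ends of the 95% exact intervals were 0.0389% and 0.0374%. Mir425 showed the reverse arrangement, with 9812 and 11056 own-strand counts in replicates 1 and 2 and 0 and 1 on the other strand. Each hairpin was therefore read on the plus strand only, up to that single read. The 1 antisense read of Mir425 in replicate 2 was 0.00904% of the reads at that row (95% exact interval 0.000229% to 0.0504%).

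Rows read mainly on their opposite strand were few. Of 391 rows with at least 10 counts in both libraries, 11 (2.81%) had most of their counts there, and 3 of these had a higher mean opposite-strand CPM than Gm24083. They were Gm25301 with 22150 ± 8966 CPM (SD, n = 2), Gm24321 with 10693 ± 5143 and Gm25252 with 2512 ± 1312 CPM, which lie across Mir378a, Mir409 and Mir376a. In all 11 rows GENCODE M21 has a microRNA gene on the opposite strand that is not among the listed identifiers. Of the 11 rows, 7 had no own-strand count in either library, Gm24083 among them. Opposite-strand reads at Gm24083 made up 4.89% of all opposite-strand gene counts in replicate 1 and 4.29% in replicate 2.

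**Figure D2:**
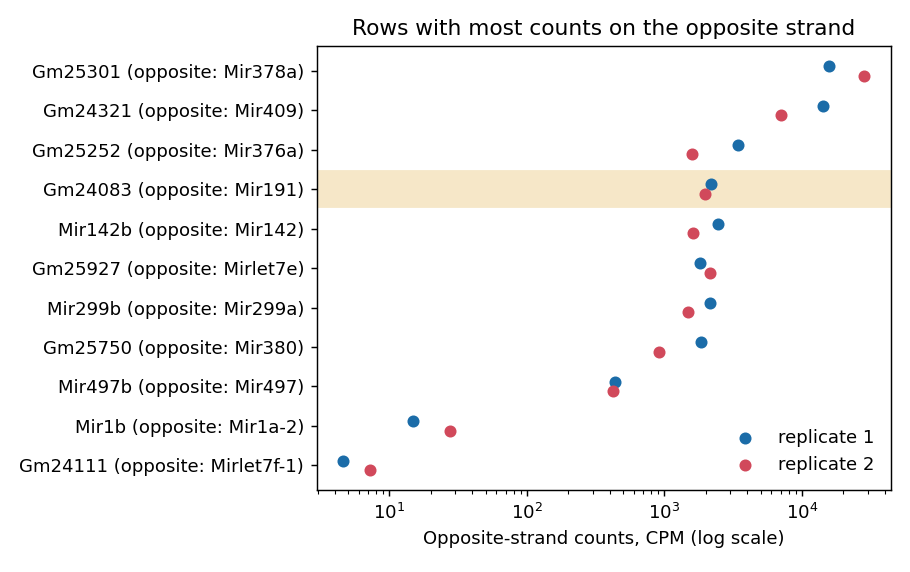
Opposite-strand counts in CPM on a log axis for the 11 rows with most counts on that strand, replicate 1 in blue and replicate 2 in red, with the microRNA annotated there in brackets. The shaded Gm24083 row lies at 2178 and 1963 CPM, and Gm25301 at the top lies at 15810 and 28490 CPM.

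Both hairpins were moderately abundant in the embryonic heart. Mir191 had 2178 CPM in replicate 1 (95% exact interval 2135 to 2222) and 1963 CPM in replicate 2 (1925 to 2002), a mean of 2071 ± 152 CPM (SD, n = 2). Mir425 had 2252 CPM in replicate 1 (2207 to 2297) and 2203 CPM in replicate 2 (2162 to 2244), a mean of 2227 ± 34.3 CPM. Among 759 rows with a count, they ranked 67th and 64th by mean CPM. Mir191 was below Mir425 in each library. The exact intervals of the pair overlapped in replicate 1 and not in replicate 2. Together they held 0.443% of gene counts in replicate 1 and 0.417% in replicate 2.

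The genes nearest to each member in level were found by the distance between log2(CPM + 1) values over the 2 libraries. For Mir191 they were Mir361 at a distance of 0.14, Mir425 at 0.17 and Mir324 at 0.19. For Mir425 they were Mir361 at 0.08, Mir191 at 0.17 and Mir532 at 0.19. Mir361, which lies in an intron of Chm, had 2326 CPM in replicate 1 and 2114 in replicate 2. Mir324 had 2409 and 1809 CPM, and Mir532, of a cluster in an intron of Clcn5, had 2457 and 2441 CPM. This closeness rests on 2 libraries.

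**Figure D3:**
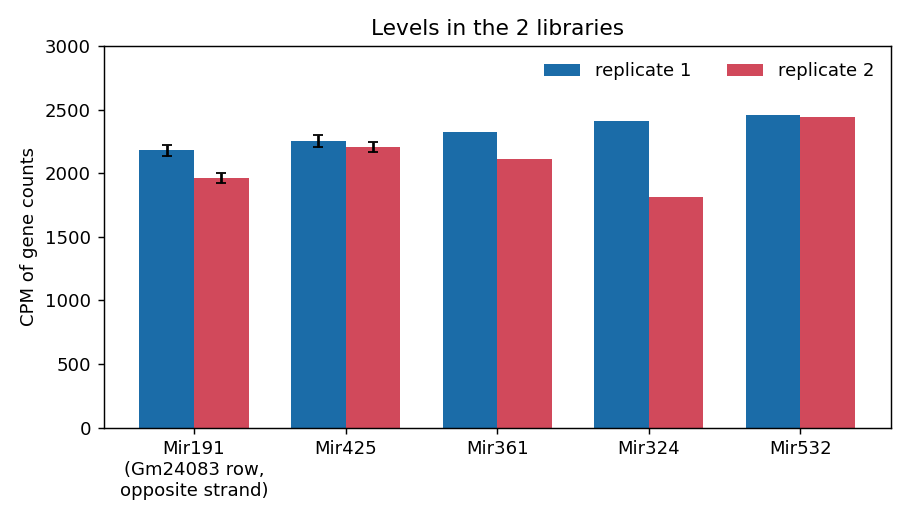
CPM of gene counts in replicate 1 (blue) and replicate 2 (red) for Mir191, Mir425 and the 3 other genes nearest to them, with bars from 0. Whiskers on Mir191 and Mir425 are 95% exact intervals and cover counting error only. Mir191 stands at 2178 and 1963 CPM and Mir425 at 2252 and 2203 CPM.

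The pair was counted at close to equal levels, and this ratio does not depend on how the libraries are scaled. Mir191 counts were 0.967 times those of Mir425 in replicate 1 (95% exact interval 0.940 to 0.995) and 0.891 times in replicate 2 (0.867 to 0.916), with a mean log2 ratio of -0.11 ± 0.08 (SD, n = 2). Mir191 thus held 49.2% of the reads of the pair in replicate 1 and 47.1% in replicate 2. The ratio was 1.09-fold higher in replicate 1 than in replicate 2 (odds ratio 95% exact interval 1.04 to 1.13). The interval covers counting error only, and with 1 ratio from each library there is no replicate spread to set it against.

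Other neighbouring hairpins put these values in scale. Among listed hairpins at most 10 kb apart, read on the same strand with at least 10 counts in each library, there were 122 other pairs. Their partners differed by a median of 7.25-fold, against 1.08-fold for Mir191 and Mir425. The levels were closer in 1 of these pairs, Mir421 and Mir374b with 1.06-fold, named after its value was seen. The log2 ratio of partners changed between the libraries by a median of 0.21 in size over the other pairs, against 0.12 for Mir191 and Mir425. A smaller change was found in 40 of the 122 pairs (32.8%). Just inside stood Mir18 and Mir19a of the Mir17-92 transcript, with a change of 0.118, and just outside stood Mir433 and Mir127 of the Dlk1-Dio3 locus, with 0.126. Many of these pairs share a gene with another pair, so they are not independent, and no test was made. Hairpins whose mature sequence is shared with another gene were kept in. Their reads map to several places and were not entered to genes, which can widen the difference between partners. How far this raised the median of 7.25-fold was not tested.

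**Figure D4:**
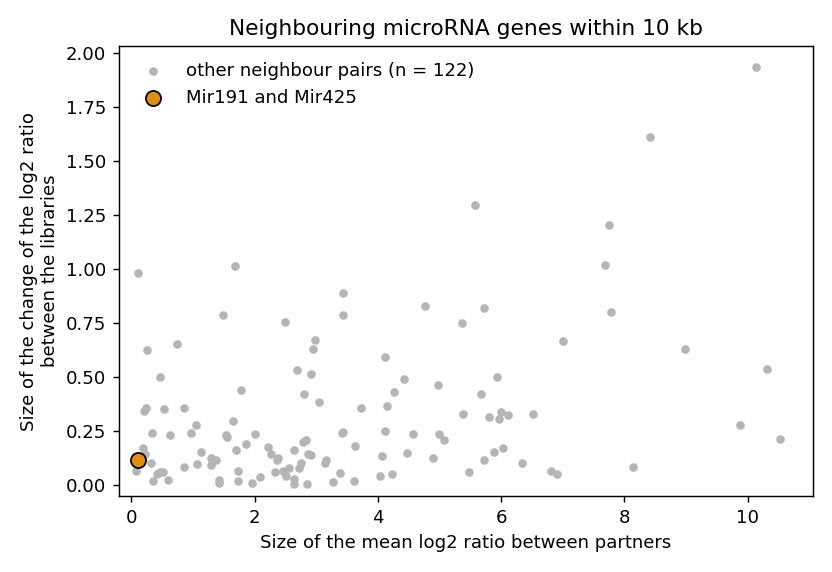
Each point is a pair of neighbouring hairpins, with the size of the mean log2 ratio between partners on the x axis and the size of the change of that log2 ratio between the libraries on the y axis. Mir191 and Mir425 (orange) lie at 0.11 and 0.12, at the left edge for level and below the median change of 0.21 of the 122 other pairs.

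Between the libraries, both hairpins moved little, and the direction turned with the scaling. With library sizes scaled by TMM, Mir191 had a log2 ratio of replicate 1 over replicate 2 of -0.12 (95% exact interval -0.17 to -0.08), or 1.09-fold lower in replicate 1. Mir425 had -0.24 (-0.28 to -0.20), or 1.18-fold lower. Over all 433 rows with at least 10 counts in a library, 62.8% passed the exact binomial test with Benjamini-Hochberg adjustment, 138 (31.9%) higher and 134 (30.9%) lower in replicate 1. Both hairpins are among the rows called lower, and nothing is read from this, since their levels were known when they were picked. With total gene counts as the scaling, the log2 ratio was 0.15 for Mir191 and 0.031 for Mir425, and Mir425 did not pass the test there. Under total counts 200 rows were called higher and 67 lower in replicate 1, and the median of all tested rows moved up by 0.27. Relative to the median of all tested rows, Mir191 stood at -0.13 and Mir425 at -0.25. These distances were the same under TMM, DESeq2 size factors and total counts by construction, since a scaling shifts all rows almost alike.

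In size these changes were below those of most genes with TMM scaling. The tested rows differed between the libraries by a median of 1.39-fold either way, and 39.5% differed by more than 1.5-fold. A smaller change than that of Mir191 was found in 12.7% of rows, and a smaller one than that of Mir425 in 29.3%. Among the 210 rows with a mean of at least 100 CPM, the median was 1.33-fold, and the shares were 16.2% and 32.4%. The order of the 2 members depends on the scaling, since with total gene counts the log2 ratio was 0.15 for Mir191 and 0.031 for Mir425.

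**Figure D5:**
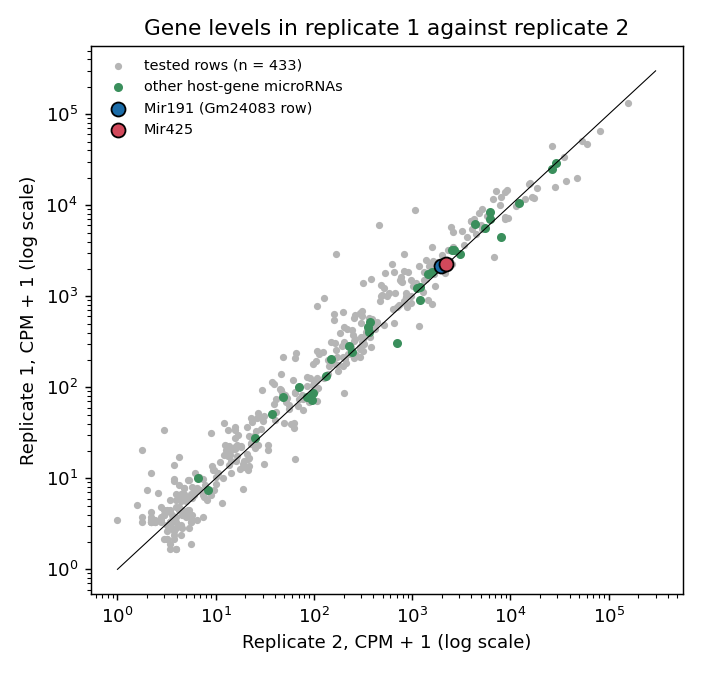
CPM + 1 in replicate 1 (y axis) against replicate 2 (x axis), both on log scales, for the 433 tested rows (grey), 34 other microRNAs of broadly expressed host genes (green), Mir191 (blue) and Mir425 (red). The line marks equal CPM, and both members lie close to it, at 2178 and 1963 CPM and at 2252 and 2203 CPM.

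MicroRNAs of other broadly expressed host genes were spread around the pair in level. All 34 on this list were tested, and 12 had a higher mean CPM than Mir191 and 11 a higher mean than Mir425. The highest were Mir26b of Ctdsp1 with 29195 ± 11.8 CPM, Mir30e of Nfyc with 25672 ± 805 and Mir652 of Tmem164 with 11379 ± 1129 CPM (SD, n = 2). With TMM scaling, 7 were higher in replicate 1, 19 were lower and 8 did not pass, where 31.9% of all tested rows were higher and 30.9% lower. The median log2 ratio was -0.13, against 0.01 over all tested rows. With total counts, 18 were higher and 7 lower, where 200 of all 433 tested rows were higher and 67 lower. The median size of the difference on this list was 1.19-fold.

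The other list held microRNAs in use as normalisers. Of its 16 other genes, Mir24-1 and Mir92a-1 are not among the listed identifiers and 14 were tested. Under TMM 3 were higher in replicate 1, 6 were lower and 5 did not pass, so 9 of 14 were called, near the 62.8% over all tested rows. They had a median log2 ratio of -0.10 and a median size of 1.13-fold. With total counts, 9 were higher and 2 lower, where 200 of all 433 tested rows were higher and 67 lower. Its most abundant members were Mir30e, Mir93 of Mcm7 with 7368 ± 1624 CPM and Mir423 with 6648 ± 659 CPM. Across both lists, 11 genes, among them Mir103-1, Mir103-2, Mir26a-1, Mir26a-2 and Mir16-1, share a mature sequence with another gene. Reads of a shared sequence map to several places and were not entered to genes, so the levels of these 11, 6.90 to 1589 CPM, are lower limits. Neither miR-191 nor miR-425 shares its sequence in this way.

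The tissue label was checked with marker microRNAs. The cardiac genes Mir208b, Mir208a and Mir499 were all present, with 33889 ± 19502, 14450 ± 3091 and 1200 ± 525 CPM (SD, n = 2), and the striated muscle list summed to 3.32% of gene counts in replicate 1 and 6.59% in replicate 2. The other 6 muscle rows, those of Mir1 and Mir133 genes and Mir206, had at most 26.0 CPM on average. Mir1a-2 is not among the listed identifiers, and most counts of the Mir1b row were on its opposite strand, where Mir1a-2 lies. Shared mature sequences were not searched for on this list, and reads mapped to several places were left out. Whether this lowered any of these 6 levels was not tested, and low levels do not show that the microRNAs were absent. Lists of other tissues also differed between the libraries. Hox-cluster genes, led by Mir10a, Mir10b and Mir196b, summed to 1.71% in replicate 1 and 0.196% in replicate 2. Epithelial genes, led by Mir429, Mir200c and Mir205, summed to 0.676% and 0.200%, and liver and gut genes, led by Mir122, Mir215 and Mir192, to 0.329% and 0.0482%. Most of the liver and gut sum in replicate 1 was Mir122, with 2941 CPM in replicate 1 and 168 CPM in replicate 2, while Mir215 went the other way with 85.8 and 201 CPM. Endothelial genes, led by Mir126a, Mir218-2 and Mir218-1, summed to 5.10% and 5.30%. Nearly all of this was Mir126a, with 50939 CPM in replicate 1 and 52966 CPM in replicate 2, while Mir218-2 went the other way with 86.1 and 45.8 CPM. Erythroid genes, led by Mir451a, Mir144 and Mir486, summed to 0.112% and 0.164%, and leukocyte genes, led by the Mir142b row, Mir155 and Mir223, to 0.293% and 0.197%. Most of the erythroid sum was Mir451a, with 905 CPM in replicate 1 and 1440 CPM in replicate 2. Mir144 went the other way with 115 and 98.2 CPM. Most of the leukocyte sum was the Mir142b row, with 2452 CPM in replicate 1 and 1624 CPM in replicate 2. Mir155 was level at 204.2 and 204.4 CPM, and Mir150 went the other way with 5.51 and 6.38 CPM. All counts of the Mir142b row were on its opposite strand, where unlisted Mir142 lies. No row of these lists was at 0 in both libraries. All 5 tested Hox genes and all 7 epithelial genes were higher in replicate 1, where 31.9% of all tested rows were. Their part in the small differences of Mir191 and Mir425 between the libraries was not tested.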

How the data were processed

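Each library has a table of read counts per microRNA gene, deposited by the authors without normalization. Per the file lists deposited beside them, the counts rest on that library's alignment to mm10 and on GENCODE release M4. For the aligner and trimming, no detail was given in the sources used here. For all 1973 rows the count over both strands equalled the own-strand plus the opposite-strand count. Summary rows (no gene named) stayed out: 26.3% and 25.5% of reads were unmapped, 23.3% and 23.5% mapped to several places, and 7.05% and 5.32% lay outside the rows, in replicates 1 and 2. The libraries differed beyond sampling noise (chi-square over rows 389244, 758 degrees of freedom) and were counted as 2 samples.

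Symbols came from GENCODE M21, which matched 1894 identifiers; the other 79 had at most 2 counts in a library. Rows with at least 10 counts in a library entered a two-sided exact conditional binomial test given TMM library sizes (edgeR 4.0.16; threshold 0.05 after Benjamini-Hochberg adjustment; prior count 0.5). Intervals are exact Clopper-Pearson at 95% (scipy 1.17.1), and intervals, floors and tests cover counting error only. They hold no term for differences between pools or preparations. Reads carry no molecular identifiers, so copies made in amplification were counted as reads. Adapter ligation is known to favour some small RNA ends, so a ratio of counts need not be a ratio of molecules.

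Named genes are the members, the 3 nearest in level to each, the 3 highest of each list, the 3 highest rows read on the opposite strand, the pairs beside this pair in the order of change, and microRNAs sharing a seed. The members, lists and tests were chosen with earlier results of these data known. Alternatives changed the denominator, strand, scaling (DESeq2 1.42.0 size factors or totals), filter, prior count and neighbour distance, and left out each replicate.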

Additional observations from a re-analysis of the deposited data

How the results depend on the processing

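Levels in CPM depend on what they are divided by. With all reads as the denominator Mir191 averaged 921 and Mir425 991 CPM, without the most abundant gene 2419 and 2603, and with own-strand gene counts Mir425 averaged 2333. Leaving out each replicate gave 1963 to 2178 CPM for Mir191, 2203 to 2252 CPM for Mir425 and -0.17 to -0.05 for the log2 ratio of the pair. With total gene counts as the scaling, the log2 ratio of replicate 1 over replicate 2 reversed to 0.15 for Mir191 and 0.031 for Mir425. Mir425 did not pass the exact binomial test with that scaling. With that scaling the host-gene list had 18 genes higher and 7 lower in replicate 1, and the normaliser list 9 and 2. Of all 433 tested rows, 200 were then higher and 67 lower. These turns follow from the scaling, which moved the median of all tested rows by 0.27. The ratio of the pair and its difference between the libraries kept direction with counts of both strands. The log2 ratios of both hairpins between the libraries also kept direction with DESeq2 size factors, no filter, strand counts and a prior count of 2. The DESeq2 size factors were 1 for both libraries, so that setting compared unscaled counts. Leaving out the filter could not change the log2 ratio of a hairpin, and a prior count of 2 is small beside the counts of the pair. The number of called rows ran from 261 to 272. The share of neighbour pairs with a smaller change ran from 29.9% to 38.6%. No paired analysis was possible because the study has 1 group. With 2 libraries the SD rests on 1 degree of freedom, and a difference between the pools cannot be told apart from library preparation.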

Other observations

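The predicted folds of both hairpins were ordinary for mouse microRNAs. RNAfold 2.7.2 gave a minimum free energy of -35.0 kcal/mol for the Mir191 hairpin and -31.7 kcal/mol for the Mir425 hairpin, against a median of -32.0 over 1005 RefSeq hairpins. The 120 bases of Gm24083 folded at -58.6 kcal/mol on its own strand, which had 0 counts, and at -52.1 kcal/mol on the opposite strand, which held all 9492 and 9854 counts of the row in replicates 1 and 2.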
